A study of Mus musculus with 6 samples.

Results

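The response of the microRNAs (miRNAs) of mouse embryoid bodies (EBs) to 16 h of hypoxia was measured by setting EBs kept under hypoxia (2 arrays) against EBs kept under normoxia (2 arrays). EBs are the aggregates that embryonic stem cells form when they begin to differentiate. Both groups were made from C57 mouse embryonic stem cells in hanging drops without feeder cells or leukaemia inhibitory factor, so oxygen is the labelled difference between them. The oxygen level under hypoxia, the number of cultures and any pooling of drops are not stated in the labels. Another group of 2 arrays, undifferentiated stem cells of the same line under normoxia, entered the fit only to help estimate the spread between arrays. The miRNAs described here were those that the scanner called detected on both arrays of at least 1 of the EB groups. They numbered 481 of the 1247 mouse miRNAs on the array.

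A miRNA is a short RNA cut from a hairpin precursor, and either strand of the hairpin, the 5p or the 3p arm, can be kept. It represses messenger RNAs that pair with its seed, here bases 2 to 8, so miRNAs with the same seed can share targets. When oxygen is low, hypoxia-inducible factors accumulate and switch on genes for glycolysis, blood vessel growth and, among miRNAs, miR-210. Embryonic stem cells are known for seed families that promote the cell cycle: the miR-290 to miR-295 and miR-302/miR-367 clusters and the miR-17/92 cluster with its paralogues.

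The sequences on which the results turn are set out by seed, from RefSeq (GRCm38.p6), with the seed in capitals. The first is the best known hypoxia-induced miRNA, and the other pair, which share a seed, are members of the miR-34 family, targets of the transcription factor p53.
miR-210-3p: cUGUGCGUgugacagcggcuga
miR-34a-5p: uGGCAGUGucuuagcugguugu
miR-34b-5p: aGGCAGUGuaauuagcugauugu

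The next 3 families fell in every member that had a RefSeq sequence and was detected on all 4 EB arrays. In order, they are 5 members of the miR-294/miR-302 family, 5 of the miR-17 family, whose seed is the same run moved by a base, and 5 of the miR-25/92 family.
miR-291a-3p: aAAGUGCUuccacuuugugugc
miR-294-3p: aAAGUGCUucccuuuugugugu
miR-295-3p: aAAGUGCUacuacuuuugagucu
miR-302b-3p: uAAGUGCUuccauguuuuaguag
miR-302d-3p: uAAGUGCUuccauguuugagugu
miR-17-5p: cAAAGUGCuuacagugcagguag
miR-20a-5p: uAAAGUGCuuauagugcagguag
miR-20b-5p: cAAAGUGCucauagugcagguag
miR-93-5p: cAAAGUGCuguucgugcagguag
miR-106b-5p: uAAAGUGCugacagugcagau
miR-25-3p: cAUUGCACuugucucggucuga
miR-32-5p: uAUUGCACauuacuaaguugca
miR-92a-3p: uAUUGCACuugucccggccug
miR-363-3p: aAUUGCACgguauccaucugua
miR-367-3p: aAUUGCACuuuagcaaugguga

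The last set holds both arms of 4 hairpins called lower in the 5p and higher in the 3p arm, both arms of a hairpin whose 5p arm alone rose, and a pair with the miR-125 seed that moved in opposite directions.
miR-125a-5p: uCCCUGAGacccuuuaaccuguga
miR-125a-3p: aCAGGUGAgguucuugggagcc
miR-30c-5p: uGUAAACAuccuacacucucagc
miR-30c-1-3p: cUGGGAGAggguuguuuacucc
miR-324-5p: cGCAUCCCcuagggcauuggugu
miR-324-3p: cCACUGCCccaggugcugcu
miR-99b-5p: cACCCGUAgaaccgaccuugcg
miR-99b-3p: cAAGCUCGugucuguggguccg
miR-365-2-5p: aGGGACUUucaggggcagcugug
miR-365-3p: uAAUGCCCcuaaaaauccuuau
miR-125b-5p: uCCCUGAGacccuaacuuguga
miR-6394: uCCCUGAGuggggccaggucu

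The scanner called 495 and 471 mouse miRNAs detected on the hypoxic EB arrays, against 446 and 473 on the normoxic EB arrays. Signals below were scaled to each array's 75th percentile, taken over 391 miRNAs with detection on every one of the 6 arrays and are given in scaled signal units. Scaled signals of replicate arrays correlated across miRNAs with r = 0.998 under hypoxia and 0.997 under normoxia, and their log2 differences had an SD of 0.173 and 0.214. The labels do not say whether the arrays of a group stem from separate cultures. P-values thus reflect only the spread between these arrays, possibly technical, and precision is limited by the number of arrays. The file names give the 4 EB arrays a common slide number and each a position of its own, so position and condition cannot be told apart. In bulk RNA, fewer cells of a type and less RNA per cell cannot be told apart.

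Many miRNAs differed between hypoxic and normoxic EBs, in both directions and nearly all by a small amount. Of the 484 miRNAs fitted with limma, 159 were higher under hypoxia (32.9%) and 122 lower (25.2%) at an adjusted p under 0.05, together 58.1%. The hypoxic and normoxic arrays did not overlap for 410 (84.7%). Among the 432 miRNAs detected on all 4 EB arrays, 144 were higher, 117 lower and 171 not past the threshold. Their median log2 change was 0.08. Only 35 of the 432 were higher by 1.5-fold or more and 6 lower by as much, and 4 and 2 reached 2-fold. The calls lay at all signal levels: with the 432 ordered by signal, from dim to bright, in 4 sets of 108, 25, 39, 42 and 38 were higher and 17, 29, 33 and 38 lower. The other 49 members were detected on fewer than 4 EB arrays, and their calls rest in part on the floor.

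**Figure D1:**
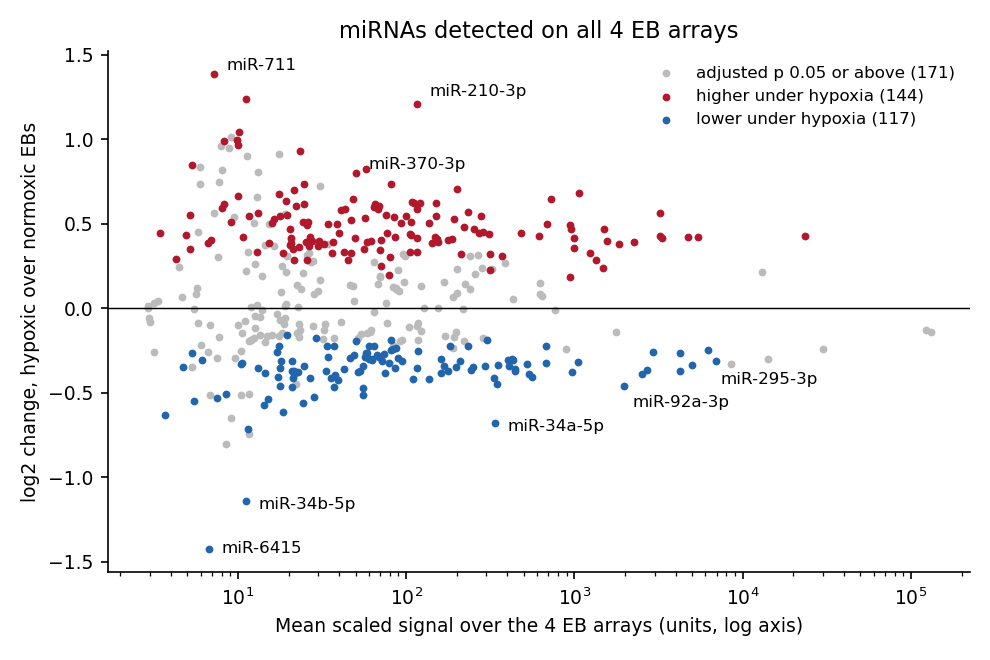
log2 change of hypoxic over normoxic EBs (vertical axis) against the mean scaled signal over the 4 EB arrays (horizontal log axis) for 432 miRNAs. Red points are higher under hypoxia (144), blue points lower (117) and grey points not past the threshold (171). Most points lie within 1 log2 unit of 0, with miR-711 and miR-210-3p above and miR-34b-5p and miR-6415 below.

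The balance of these calls depended on the scaling. Without scaling, 24 miRNAs were higher and 115 lower, and scaling to the 5 hur controls on the array gave 231 higher and 15 lower. The median change of the 432 miRNAs moved to -0.15 without scaling and 0.32 with the hur features. Rises made up 56.6% of the calls as reported, 42.7% to 58.1% with other percentiles, the median, quantile normalization or cyclic loess, 17.3% without scaling, 93.9% with the hur features and 34.8% with the authors' deposited ratio. The 75th percentile signal came to 2.44% and 2.20% of the hur mean on the hypoxic arrays, against 1.97% and 1.97% on the normoxic arrays. Changes are therefore read relative to the bulk of the miRNAs. Of the 484, 14 were called higher and 10 called lower under all 8 scalings, a set that leaves out the authors' ratio. Under all 8, 184 were above 0 and 122 below 0. For the 432 detected on all 4 EB arrays these counts were 13, 10, 172 and 116. The counts over the 484, here and in the fits below that leave out an array, include miRNAs whose calls rest in part on the floor. Leaving out normoxic array 1 left 87 rises and 73 falls, leaving out hypoxic array 2 left 102 and 71, and leaving out hypoxic array 1 left 64 falls. In all, 62 of the 159 rises and 36 of the 122 falls were called in each of the 4 fits that left out an EB array.

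miR-210-3p, the miRNA best known as a target of hypoxia-inducible factor, read 171 and 181 units on the hypoxic arrays, against 79.3 and 73.6 units on the normoxic arrays. It was the only one of the 10 largest rises above 100 units on a hypoxic array. Both hypoxic arrays lay far above both normoxic arrays, a rise of 2.31-fold (95% interval 2.02 to 2.64, limma adjusted p = 0.00601). A ratio within each array needs no scaling factor. Relative to the mean log2 signal of the 432 miRNAs on the same array, miR-210-3p stood at 1.52 and 1.53 under hypoxia, against 0.48 and 0.34 under normoxia, a log2 change of 1.12. Its log2 change was between 0.97 and 1.44 over the 8 scalings, and it was called higher in each of them. The other arm, miR-210-5p, was not detected on both arrays of either group.

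Most of the other large rises were in dim miRNAs. miR-711 read 10.7 and 12.6 units under hypoxia, against 3.97 and 4.96 under normoxia, the largest rise among miRNAs detected on all 4 arrays (2.61-fold, 1.97 to 3.46, limma adjusted p = 0.00741). miR-3085-5p read 13.3 and 14.8 units in hypoxic EBs, against 6.56 and 7.54 in normoxic EBs (1.99-fold, limma adjusted p = 0.00694). miR-6238 read 31.8 and 32.6 units in hypoxic EBs, against 16.7 and 17.1 in normoxic EBs (1.90-fold, limma adjusted p = 0.00601). For all 3 the arrays of the groups were well separated, and the call held under all 8 scalings and without any 1 EB array. miR-433-5p, from the imprinted Dlk1-Dio3 region, read 6.70 and 7.55 units under hypoxia, against 4.02 and 3.90 under normoxia (limma adjusted p = 0.00694). This call held without any 1 EB array but was lost with quantile normalization, where the log2 change was 0.11 in place of 0.84, and with either other floor. Another miRNA of that region, miR-370-3p, read 63.0 and 69.3 units under hypoxia, against 36.8 and 39.2 under normoxia (1.74-fold). It was among those called under all 8 scalings.

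For 4 of the 10 largest rises the normoxic arrays differed widely. miR-6401 read 16.9 and 17.4 units under hypoxia, against 5.59 and 9.49 under normoxia (2.36-fold, 1.45 to 3.83, limma adjusted p = 0.0198). miR-184-3p, a miRNA abundant in the lens and cornea, read 13.5 and 14.4 units under hypoxia, against 5.46 and 9.33 under normoxia (1.96-fold, limma adjusted p = 0.0356). miR-574-3p read 73.3 and 79.7 units under hypoxia, against 37.0 and 50.4 under normoxia (1.77-fold, limma adjusted p = 0.0174). These calls were lost without hypoxic array 1 and without hypoxic array 2. miR-291b-5p, a 5p arm from the stem cell cluster on chromosome 7, read 13.02 and 16.5 units under hypoxia, against 5.75 and 8.77 under normoxia, and its call was lost without hypoxic array 1, hypoxic array 2 or normoxic array 1.

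**Figure D2:**
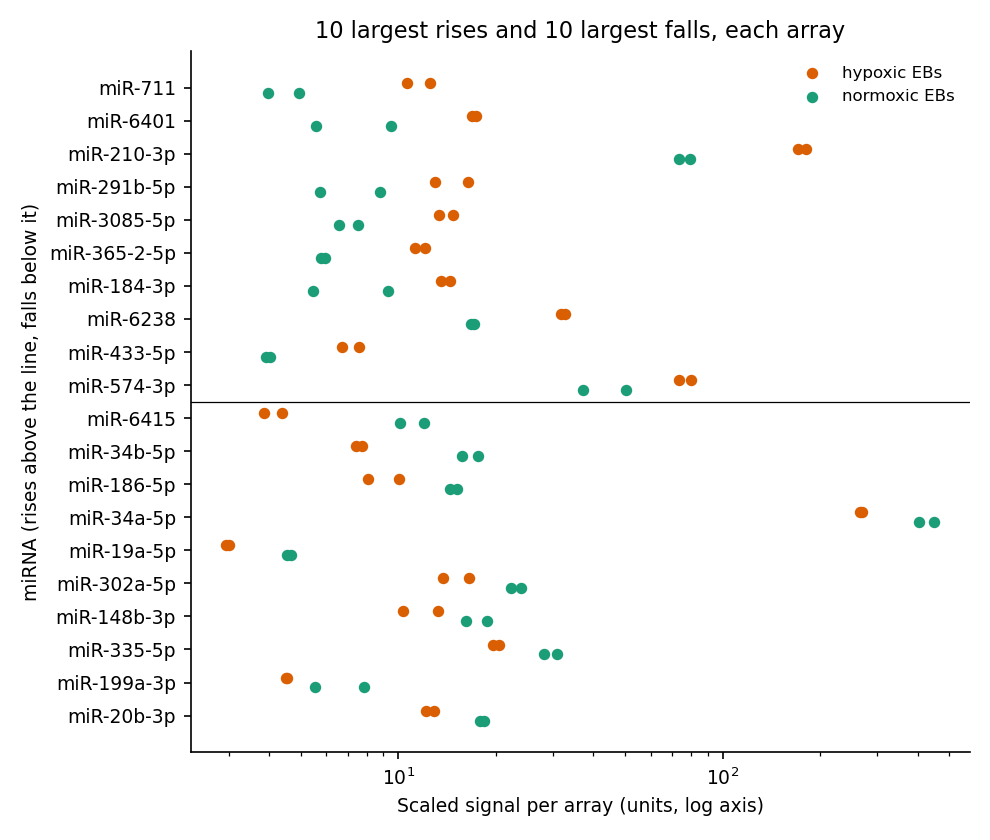
Scaled signal on each array (horizontal log axis) for the 10 largest rises, above the line, and the 10 largest falls, below it, among miRNAs detected on all 4 EB arrays. Each row has 2 hypoxic points in orange and 2 normoxic points in green; they do not overlap in any row because the miRNAs were chosen that way. miR-34a-5p and miR-210-3p are the brightest miRNAs of the falls and the rises.

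The miR-34 family held 2 of the 10 largest falls. miR-34a-5p read 265 and 268 units on the hypoxic arrays, against 449.7 and 404 on the normoxic arrays (1.60-fold lower, 1.41 to 1.82, limma adjusted p = 0.00705). miR-34b-5p read 7.41 and 7.72 units in hypoxic EBs, against 17.7 and 15.7 in normoxic EBs (2.20-fold lower, limma adjusted p = 0.00601). Relative to the 432 miRNAs of the same array, their log2 levels fell by 0.76 and 1.23, and both were called lower under all 8 scalings and without any 1 EB array. A further pair of entries, miR-34a-3p and the dim miR-34c-5p, had detected signals in normoxic EBs alone. The floor stands in for their hypoxic signals, so no p is given for them. The other 2 of the 6 miR-34 entries on the array were not detected on both arrays of either group.

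The other large falls were in dim miRNAs. miR-6415 read 3.86 and 4.37 units under hypoxia, against 10.1 and 12.0 under normoxia, the largest fall (2.68-fold lower, 1.39 to 5.18, limma adjusted p = 0.0291). Its arrays did not overlap, but the call was lost without any 1 of the 4 EB arrays. miR-335-5p, encoded in an intron of the imprinted gene Mest, read 20.5 and 19.5 units under hypoxia, against 30.9 and 28.1 under normoxia (1.47-fold lower, limma adjusted p = 0.00802). miR-20b-3p, a strand of the miR-106a/363 cluster, read 12.1 and 12.9 units under hypoxia, against 17.8 and 18.4 under normoxia (1.45-fold lower, limma adjusted p = 0.00741). miR-19a-5p, a strand of the miR-17/92 cluster, averaged 2.97 units under hypoxia, against 4.61 under normoxia (1.55-fold lower). Its hypoxic mean lay next to the floor of 2.91, and its call was lost with quantile normalization and with a floor 4 times as high. The last 3 kept their calls without any 1 EB array, and of them miR-20b-3p was called under all 8 scalings.

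Another 4 completed the 10 largest falls. miR-186-5p read 10.1 and 8.05 units under hypoxia, against 15.1 and 14.4 under normoxia (limma adjusted p = 0.0131), and miR-302a-5p 16.6 and 13.7 units under hypoxia, against 23.8 and 22.3 under normoxia (limma adjusted p = 0.0136). Both calls were lost without normoxic array 1. miR-148b-3p, a known repressor of the DNA methyltransferase Dnmt1, read 13.2 and 10.4 units under hypoxia, against 18.8 and 16.2 under normoxia, and miR-199a-3p 4.50 and 4.53 units under hypoxia, against 5.56 and 7.85 under normoxia. Their adjusted p was 0.0294 and 0.0499 in the limma fit. The call of miR-148b-3p was lost without hypoxic array 2 or either normoxic array, and that of miR-199a-3p without either hypoxic array.

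Some miRNAs were detected in only 1 of the groups: 12 on both hypoxic arrays and neither normoxic array, and 5 the other way round. Their unscaled signals are given without a fold, since undetected miRNAs carry a fixed value of 0.1 units in the files. The 5 with the highest signal among the 12 were miR-3473c at 9.29 and 12.1 units, miR-493-3p at 10.9 and 6.69, miR-1960 at 10.2 and 3.97, miR-5110 at 9.40 and 4.01, and miR-125b-1-3p at 6.91 and 5.97. The 5 detected only under normoxia were miR-34a-3p at 6.43 and 7.97 units, miR-466p-5p at 5.61 and 5.06, miR-34c-5p at 5.11 and 5.38, miR-434-3p at 5.22 and 5.14, and miR-136-5p at 5.03 and 4.61. Each entered through the group that detected it, with the floor in place of the other, so no p is given. miR-493-3p, miR-434-3p and miR-136-5p, all of the Dlk1-Dio3 region, thus lay on both sides. All these signals lie near the detection limit: there were 46 cases in which a miRNA without detection on an array exceeded the floor on the replicate array.

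Members were then grouped by seed. RefSeq gave a mature sequence for 355 of the 481 members and for 316 of the 432 detected on all 4 EB arrays. Entries without a sequence entered no family, among them miR-302a-3p, miR-30b-5p, miR-30d-5p and miR-301b-3p, all called lower. The 316 carried 267 seeds, of which 238 belonged to a single miRNA, and 10 seeds had at least 3 such members, 40 miRNAs in all. Of these 40 miRNAs, 30 were past the threshold, against 261 of the 432. The median change was below 0 in 9 of the 10 families, against 0.08 for the 432 miRNAs. In 5 families every member fell, and in the let-7 and miR-200 families no member passed.

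The miR-294/miR-302 family (seed AAGUGCU), which promotes the cell cycle of embryonic stem cells, held the brightest of these members. All 5 members fell, with a median log2 change of -0.34 and a range of -0.41 to -0.24. miR-295-3p read 6214 and 6301 units under hypoxia, against 8204 and 7355 under normoxia (1.24-fold lower, limma adjusted p = 0.0241). miR-294-3p read 5851 and 5647 units under hypoxia, against 7231 and 6415 under normoxia (1.18-fold lower, limma adjusted p = 0.0497). miR-302d-3p read 290.3 and 285 units under hypoxia, against 400.5 and 364 under normoxia (1.33-fold lower, limma adjusted p = 0.0110). Both hypoxic arrays lay below both normoxic arrays for each. Of the 5 calls, 1 held without any 1 EB array, that of miR-302d-3p, and none held with the hur features.

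The miR-17 family (seed AAAGUGC), which promotes proliferation and restrains cell death, also fell in all 5 members, by a median of -0.36 (range -0.39 to -0.31). miR-20a-5p read 2427 and 2352 units under hypoxia, against 3252 and 2912 under normoxia (1.29-fold lower, limma adjusted p = 0.0170). Its relative on the X chromosome, miR-20b-5p, read 2232 and 2190 units under hypoxia, against 3081 and 2724 under normoxia (1.31-fold lower, limma adjusted p = 0.0167). Both calls were lost without either hypoxic array, and in the family 2 of 5 calls held without any 1 EB array. Their sequences differ by few bases, so each probe may also read the other.

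The miR-25/92 family (seed AUUGCAC) fell in 5 of 5 members and had the lowest median of the 10 families, -0.40 (range -0.46 to -0.34). miR-92a-3p, made from the miR-17/92 cluster and its paralogue on the X chromosome, read 1618 and 1757 units under hypoxia, against 2386 and 2254 under normoxia (1.38-fold lower, 1.22 to 1.55, limma adjusted p = 0.00958). It was the only member of any of the 10 families called lower under all 8 scalings. miR-367-3p, from the miR-302/miR-367 cluster, read 482 and 487 units under hypoxia, against 674 and 609 under normoxia (1.32-fold lower, limma adjusted p = 0.0143). Its call was lost without either hypoxic array, and 2 of the 5 calls held without any 1 EB array.

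Families known from other roles moved by like amounts. The miR-29 family (seed AGCACCA), which represses collagen genes, fell in 3 of 3 members by a median of -0.39. miR-29a-3p read 34.1 and 33.7 units under hypoxia, against 47.4 and 43.5 under normoxia. The miR-30 family (seed GUAAACA) fell in 3 of 3 by a median of -0.38, with miR-30e-5p at 103 and 101 units under hypoxia, against 135 and 127 under normoxia (1.28-fold lower, limma adjusted p = 0.00989). In the miR-15/16 family (seed AGCAGCA), which represses the survival factor Bcl2 and cyclins, 3 of 5 members fell, with a family median of -0.30. miR-16-5p read 477 and 462 units under hypoxia, against 639.8 and 588 under normoxia. In the miR-130 family (seed AGUGCAA) 3 of 4 members fell, and the fourth, miR-721, read 612 and 707 units under hypoxia, against 581 and 605 under normoxia (log2 change 0.15, limma adjusted p = 0.214). Calls that held without any 1 EB array numbered 1 of 3 in the miR-29 family, 2 of 3 in the miR-30 family, 2 of 3 in the miR-15/16 family and 0 of 3 in the miR-130 family.

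The miR-125 seed (CCCUGAG), that of the founding worm miRNA lin-4, held members that moved apart. miR-125a-5p read 62.1 and 63.2 units under hypoxia, against 80.8 and 72.7 under normoxia (1.22-fold lower, limma adjusted p = 0.0231). miR-125b-5p read 55.6 and 57.6 units under hypoxia, against 75.1 and 64.7 under normoxia (1.23-fold lower, limma adjusted p = 0.0452). miR-6394 shares their seed and read 14.8 and 17.5 units under hypoxia, against 11.4 and 10.4 under normoxia (1.48-fold higher, limma adjusted p = 0.0212). The call of miR-6394 was lost with cyclic loess and without scaling, and those of the other pair with the hur features. None of the 3 calls held in every fit that left out an EB array: the first pair lost theirs without either hypoxic array, and miR-6394 without hypoxic array 2 or either normoxic array.

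In the miR-200 family (seed AAUACUG), which guards epithelial identity by repressing Zeb1 and Zeb2, 0 of 3 members passed, with a median of -0.09. miR-200b-3p read 52.3 and 49.8 units under hypoxia, against 59.5 and 54.0 under normoxia (log2 change -0.15, limma adjusted p = 0.125). In the let-7 family (seed GAGGUAG), which rises as cells differentiate, 0 of 4 passed. let-7a-5p read 9.44 and 9.93 units under hypoxia, against 11.5 and 9.29 under normoxia (limma adjusted p = 0.492). Its hypoxic arrays lay between its normoxic arrays.

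**Figure D3:**
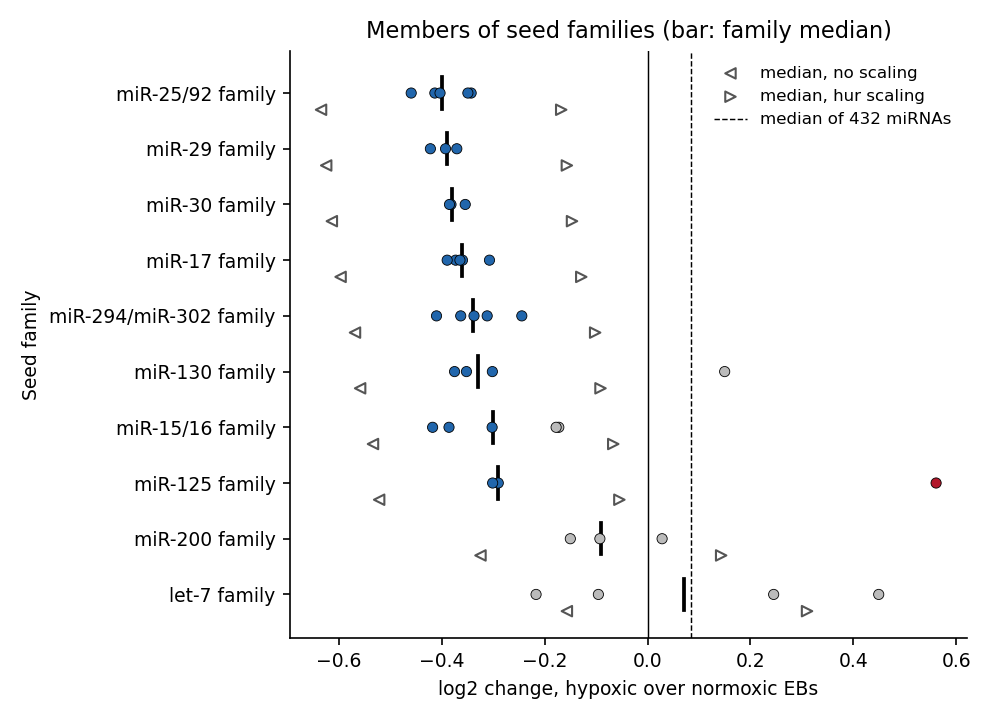
log2 change of hypoxic over normoxic EBs (horizontal axis) for each member of the 10 seed families with at least 3 members detected on all 4 EB arrays. Points are miRNAs, in blue when lower, red when higher and grey when not past the threshold; black bars are family medians, triangles the medians without scaling (left) and with the hur features (right), and the dashed line is the median of all 432 miRNAs. The 8 upper families keep medians below 0 under both, while the miR-200 and let-7 medians change sign.

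Within-array ratios need no scaling factor. Each family's mean log2 signal was set against the mean of the 432 miRNAs on the same array. These levels mix probes and do not rank the families by abundance, so only their change is read. The miR-25/92 family stood at 2.12 and 2.08 on the hypoxic arrays, against 2.66 and 2.50 on the normoxic arrays, a change of -0.48. The miR-294/miR-302 family stood at 4.73 and 4.65 under hypoxia, against 5.20 and 5.02 under normoxia (-0.42). The miR-17 family stood at 3.73 and 3.62 under hypoxia, against 4.20 and 4.04 under normoxia (-0.45). The miR-29 family stood at -0.90 and -0.98 under hypoxia, against -0.37 and -0.54 under normoxia (-0.48), and the miR-30 family at 0.73 and 0.64 under hypoxia, against 1.23 and 1.06 under normoxia (-0.46). The miR-15/16 family stood at 0.82 and 0.71 under hypoxia, against 1.24 and 1.04 under normoxia (-0.38), and the miR-130 family at 2.21 and 2.19 under hypoxia, against 2.57 and 2.44 under normoxia (-0.31). For these 7 families both hypoxic arrays lay below both normoxic arrays. The miR-200, miR-125 and let-7 families changed by -0.16, -0.10 and 0.01. The mean of the 432 is itself a yardstick: with the hur features, the medians of the 5 families that fell in every member were only -0.17 to -0.10. The smallest p of an exact permutation test (two-sided) on 2 against 2 arrays is 0.333.

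Set against each other on the same array, the families that fell kept nearly fixed ratios. A ratio on an array changes by the difference between the changes of its parts, so these comparisons restate the family changes above. The miR-294/miR-302 family minus the miR-17 family came to 1.01 and 1.03 in log2 under hypoxia, against 1.00 and 0.98 under normoxia, a change of 0.03. The miR-25/92 family minus the miR-17 family came to -1.61 and -1.55 under hypoxia, against -1.55 and -1.54 under normoxia, a change of -0.03. Against the families with no member past the threshold the ratios moved. The miR-294/miR-302 family minus the let-7 family came to 7.87 and 7.99 under hypoxia, against 8.31 and 8.40 under normoxia (-0.43). Minus the miR-200 family it came to 5.78 and 5.85 under hypoxia, against 6.07 and 6.08 under normoxia (-0.26).

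The widest of these ratios was that of miR-210-3p. Minus the miR-294/miR-302 family it came to -3.21 and -3.12 in log2 under hypoxia, against -4.73 and -4.68 under normoxia, a change of 1.54. Minus the let-7 family it came to 4.66 and 4.87 under hypoxia, against 3.59 and 3.72 under normoxia, a change of 1.11. The rise of miR-210-3p relative to the stem cell family was thus larger than its scaled log2 change of 1.21, since that family fell on the same arrays.

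The arms of a hairpin come from a single transcript, so their ratio on an array shows whether they changed together. Both arms were detected on all 4 EB arrays for 74 pairs of arms, with 72 distinct 5p and 70 distinct 3p arms, since some arms are made from more than 1 hairpin. In most pairs the ratio moved little: the log2 ratio of 5p to 3p changed by less than 0.3 in 51 of 74, with a median change of -0.04. It was past the threshold in 10 pairs (13.5%), lower in 8 (10.8%) and higher in 2 (2.7%). The hypoxic and normoxic ratios did not overlap in 46 pairs (62.2%). Both arms were called lower in 18 pairs and both higher in 6. In 4 pairs the arms were called in opposite directions, each time with the 5p arm lower and the 3p arm higher. With the hur features none of these 4 5p arms was called, and miR-324-5p and miR-99b-5p had log2 changes of 0.01 and 0.04. All 4 of the 3p calls held without any 1 EB array, and none of the 5p calls did. In 29 pairs a single arm was called and in 17 neither.

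Those 4 pairs were miR-125a, miR-30c, miR-324 and miR-99b, and all were among the 10 ratios past the threshold. Each of these ratio calls was lost without hypoxic array 2, and all but that of miR-125a also without hypoxic array 1. For miR-125a the log2 ratio of 5p to 3p was -2.13 and -2.25 under hypoxia, against -1.25 and -1.40 under normoxia (change -0.86, limma adjusted p = 0.00427). Its 3p arm read 271 and 299.9 units under hypoxia, against 193 and 191 under normoxia (limma adjusted p = 0.00741), while its 5p arm fell. For miR-30c-5p against miR-30c-1-3p the ratio was 4.50 and 4.46 under hypoxia, against 5.53 and 5.31 under normoxia (change -0.94, limma adjusted p = 0.00427), with miR-30c-1-3p at 6.19 and 6.36 units under hypoxia, against 4.26 and 4.31 under normoxia. miR-30c-5p is also made from a hairpin on another chromosome. The hypoxic ratios were well below the normoxic ones in both pairs.

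The ratio of miR-324 was -1.98 and -2.10 under hypoxia, against -1.35 and -1.50 under normoxia (change -0.62, limma adjusted p = 0.0124). Its 3p arm read 66.0 and 68.6 units under hypoxia, against 51.2 and 51.2 under normoxia. The ratio of miR-99b was 0.54 and 0.41 under hypoxia, against 1.10 and 0.98 under normoxia (change -0.56, limma adjusted p = 0.0149). Its 5p arm read 47.3 and 46.7 units under hypoxia, against 55.6 and 52.1 under normoxia, and its 3p arm 32.5 and 35.1 under hypoxia, against 25.99 and 26.3 under normoxia. miR-99b and miR-125a are neighbours on chromosome 17.

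The largest change past the threshold went the other way. For miR-365-2-5p against miR-365-3p the log2 ratio was -0.22 and -0.11 under hypoxia, against -1.14 and -1.14 under normoxia (change 0.97, limma adjusted p = 0.00231). The 5p arm read 11.2 and 12.1 units under hypoxia, against 5.95 and 5.78 under normoxia, a 1.99-fold rise. The 3p arm, which is also made from a hairpin on chromosome 16, read 13.1 and 13.1 units under hypoxia, against 13.1 and 12.7 under normoxia. The ratio call of this pair was lost with a floor 4 times as high. In miR-291a, a hairpin of the stem cell cluster on chromosome 7, the ratio changed by 0.44 (limma adjusted p = 0.0168). The 3p arm fell with its seed family, and the 5p arm read 91.3 and 96.6 units under hypoxia, against 88.4 and 86.3 under normoxia. In the same cluster miR-290, miR-291b, miR-292, miR-294 and miR-295 also moved toward the 5p arm, by 0.13 to 1.10, and miR-293 by -0.27. None of these was past the threshold. The ratio call of miR-291a was lost with quantile normalization, without either hypoxic array and without normoxic array 1.

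**Figure D4:**
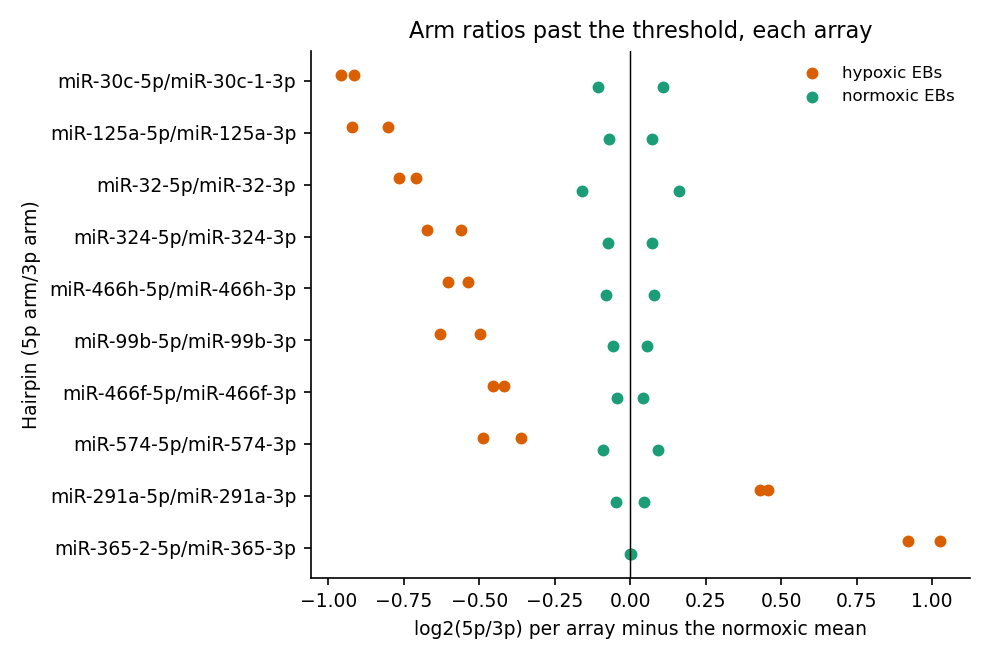
log2 ratio of 5p to 3p signal on each array, minus the mean of the normoxic arrays (horizontal axis), for the 10 pairs of arms past the threshold. Each row has 2 hypoxic points in orange and 2 normoxic points in green. The hypoxic points lie to the left, toward the 3p arm, in 8 rows and to the right in miR-291a and miR-365.

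In the other 4 pairs past the threshold the 3p arm gained. The ratio of miR-32, of the miR-25/92 family, was -2.56 and -2.50 under hypoxia, against -1.63 and -1.96 under normoxia (change -0.74, limma adjusted p = 0.0201), and the call was lost without either hypoxic array. miR-574 changed by -0.43 (limma adjusted p = 0.0407), with both arms higher and the 3p arm more so. miR-466h (-0.57, limma adjusted p = 0.0148) and miR-466f (-0.44, limma adjusted p = 0.0201) belong to the large repeated cluster in an intron of Sfmbt2, whose close copies may cross-hybridise. The ratio call of miR-466h was lost without either hypoxic array. The arm calls were sensitive to single arrays: 3 pairs passed without hypoxic array 1, 1 without hypoxic array 2, and 16 without normoxic array 2.

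Change and base composition moved together. Across the 316 miRNAs with a RefSeq sequence, the log2 change correlated with the GC content of the mature miRNA (Pearson r = 0.496, Spearman rho = 0.549). The points share 4 arrays, so this is a description. With the mean signal over the 4 arrays r was -0.081. Of the 61 miRNAs with a GC content of 65% or more, 38 were higher and 0 lower, with a median change of 0.39. Of the 79 at 55% to 65%, 36 were higher and 7 lower (median 0.37). Of the 94 at 45% to 55%, 20 were higher and 41 lower (median -0.19). Of the 62 at 35% to 45%, 6 were higher and 35 lower (median -0.31). In the 20 below 35%, 2 were higher and 7 lower (median -0.15).

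**Figure D5:**
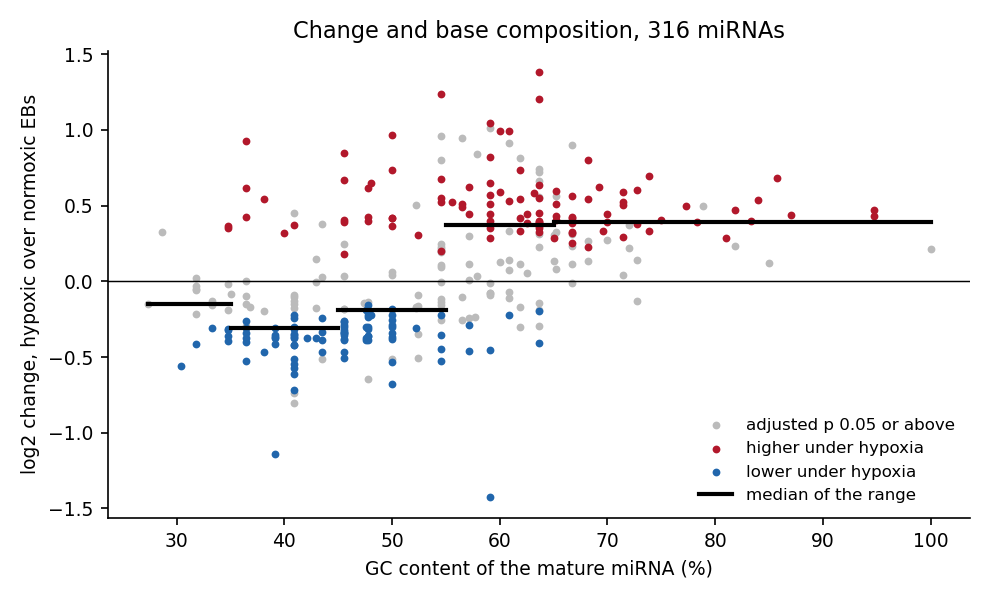
log2 change of hypoxic over normoxic EBs (vertical axis) against the GC content of the mature miRNA in percent (horizontal axis) for 316 miRNAs. Red points are higher, blue points lower and grey points not past the threshold; black bars are the medians of the 5 ranges. The medians are below 0 under 55% GC and at 0.37 and 0.39 above it.

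GC content also tracked differences between replicates. The log2 difference of hypoxic array 1 minus hypoxic array 2 correlated with it at r = -0.459 (rho -0.627) over the same 316 miRNAs, and that of normoxic array 1 minus normoxic array 2 at r = -0.229 (rho -0.438). In miRNAs of 65% GC or more the median was -0.19 between the hypoxic arrays and -0.02 between the normoxic arrays, against a change of 0.39 between the groups. A fit with the linear GC trend of each array removed, over the 357 fitted miRNAs with a sequence, called 74 higher and 96 lower. The same 357 without that step gave 114 and 90. In this fit miR-210-3p kept a log2 change of 0.96 (limma adjusted p = 0.00487). The medians of the falling families moved to -0.22 for miR-25/92, -0.16 for miR-29, -0.29 for miR-30, -0.34 for miR-17 and -0.13 for miR-294/miR-302. All 5 calls of the miR-17 family held, but only 2 of 5 of the miR-294/miR-302 family, and miR-295-3p (-0.08, limma adjusted p = 0.303) and miR-294-3p (-0.11, limma adjusted p = 0.183) were lost. Across the 52 arm pairs with both sequences, the change of the ratio correlated with the difference in GC content between the arms (r = 0.584, rho = 0.525). With the trend removed, miR-324-3p (limma adjusted p = 0.529) and miR-99b-3p (limma adjusted p = 0.0522) lost their calls. So did miR-6394, of 66.7% GC (log2 change 0.27, limma adjusted p = 0.0636). Of the 8 arm calls with both sequences, 7 held. The log2 changes of miR-365-2-5p (60.9% GC) and miR-365-3p (31.8% GC) moved from 0.99 and 0.02 to 0.80 and 0.30.

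The naming of the miRNAs moved with composition. The 297 miRNAs with a number under 1000 had a median GC content of 47.8% and a median change of -0.15, with 70 higher and 110 lower. The 135 with a number of 1000 or more, named later, had a median GC content of 63.6% and a median change of 0.38, with 74 higher and 7 lower. Among miRNAs of at least 55% GC, the 62 with low numbers had a median of 0.31 and the 78 with high numbers 0.43. Under 45% GC, the 78 with low numbers had a median of -0.31, and the only 4 with high numbers 0.37. Arm labels differed too: 36 of 154 5p entries were higher and 56 lower, 46 of 177 3p entries were higher and 57 lower, and of 101 entries with no arm label 62 were higher and 4 lower.

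Genes that lie next to each other are often transcribed together. Over the 432 miRNAs, 27.1% were lower and 33.3% higher. Members were placed in clusters by RefSeq, so detected entries that it does not place are left out of these counts. Among those left out are miR-363-5p, miR-302a-3p and miR-19a-5p, all called lower. In the miR-106a/363 cluster on the X chromosome all 8 members placed there and detected on all 4 EB arrays fell, with a median of -0.42. In the miR-302/miR-367 cluster on chromosome 3, 5 of 6 fell (median -0.41). In the miR-17/92 cluster on chromosome 14, 10 of 11 fell (median -0.36), 2 of them also made from the X-linked cluster. In the miR-106b/25 cluster on chromosome 5, 4 of 5 fell (median -0.34), and in the miR-183/96/182 cluster on chromosome 6, 3 of 4 (median -0.26). The miR-290 to miR-295 cluster on chromosome 7 was mixed, with 5 of the 8 members placed there lower, 1 higher and a median of -0.21. Of all 14 entries listed for miR-290 to miR-295, 7 were lower and 1 higher, with a median of -0.2. Of 3 groups of neighbours in the Dlk1-Dio3 region on chromosome 12, the first and second were mixed. In the third all changes were above 0 (0.37 to 0.82). In the first, 4 of 7 were higher and 1 lower (median 0.42), in the second 2 of 5 higher and 1 lower (median 0.50), and in the third 2 of 4 higher and 0 lower (median 0.59). The lower one of the second group was miR-127-3p, called lower under all 8 scalings. The first group had 6 further members not detected on all 4 arrays, all with changes below 0 (-1.20 to -0.17) and 0 past the threshold. Calls that held without any 1 EB array numbered 3 of 8 in the miR-106a/363 cluster, 1 of 5 in miR-302/miR-367, 3 of 10 in miR-17/92, 1 of 4 in miR-106b/25, 0 of 3 in miR-183/96/182 and 1 of 6 in miR-290 to miR-295. With the hur features 4 of the 8 calls in the miR-106a/363 cluster and 2 of the 10 in the miR-17/92 cluster stayed past the threshold downward. None did in the miR-302/miR-367, miR-106b/25, miR-183/96/182 or miR-290 to miR-295 clusters. Of the 14 entries listed for miR-290 to miR-295, 5 were then called higher, all of them 5p arms, and 0 lower, where 231 of the 484 were called higher.

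miRNAs reported as hypoxia-responsive in other systems were taken as a list. Of 18 detected entries in a list of 25, 2 rose and 11 fell, with a median of -0.25, against 33.3% higher and 27.1% lower among the 432. The other riser was miR-155-5p, an immune cell miRNA, at 25.7 and 26.9 units under hypoxia, against 20.2 and 20.6 under normoxia (1.29-fold, limma adjusted p = 0.0145). miR-21a-5p, common in adherent and tumour cells, read 154 and 147 units under hypoxia, against 201 and 179 under normoxia (1.27-fold lower, limma adjusted p = 0.0233). With the hur features 0 of the 18 were called lower, and 2 of the 13 calls held without any 1 EB array.

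Marker miRNAs of embryonic stem cells were detected on all 4 EB arrays, some bright, such as miR-295-3p, and others dim, such as miR-291b-5p. The 14 entries of the miR-290 to miR-295 list summed to 24070 and 24260 units under hypoxia, against 30700 and 27750 under normoxia. Of other cell types, 9 of 15 fibroblast and feeder miRNAs were detected, of which 6 fell and 0 rose, where 27.1% of the 432 were lower and 33.3% higher. They summed to 949 and 947 units under hypoxia, against 1131 and 1045 under normoxia. The other 6, miR-143-3p, miR-145a-5p, miR-199a-5p, miR-214-3p, miR-100-5p and miR-152-3p, were not detected on both arrays of either group. The other arm of miR-199a, miR-199a-3p, was detected on all 4 EB arrays. For neural miRNAs, 5 of 10 were detected, 3 of them lower, with sums of 265 and 268 units under hypoxia, against 331 and 312 under normoxia. For blood-cell miRNAs, 4 of 8 were detected, of which 1 rose, miR-155-5p, and 1 fell, miR-142-3p, the brightest of them. The 4 summed to 161 and 165 units under hypoxia, against 205 and 191.0 under normoxia. No endoderm (0 of 5) or muscle (0 of 8) marker was detected on both arrays of either group, and of the endothelial and smooth muscle list 1 of 6 was, miR-126-3p. Without any 1 EB array, 1 of the 6 fibroblast and 1 of the 3 neural calls held, and with the hur features 1 and 0 were called lower. The part of these cell types in the results was not tested.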

How the data were processed

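Total RNA was hybridised to single-colour (Cy3) Agilent miRNA arrays. Scanner files give, per the file headers, an intensity summed per miRNA and a detection flag, over 1268 features, 21 of them controls. Undetected miRNAs carry 0.1. The labels' protocols describe a labelling kit for cRNA, so which labelling served these arrays is not settled. Scanner software is not given in the sources used here. A table deposited by the authors adds a normalized ratio per miRNA, used as an alternative. Its raw columns equal the scanner files in 1253 shared entries, and 6 columns of it, of 2 arrays that match no sample, were not used.

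Each array was scaled to its 75th percentile over 391 miRNAs, floored at 2.91 and put on the log2 scale, from the deposited intensity. miRNAs with detection on both arrays of a group, for any of the 3 groups, numbered 484 and were fitted on all 6 arrays with limma 3.58.1 in R 4.3.3 (lmFit, eBayes; 3 residual and 1.43 prior degrees of freedom) and adjusted by Benjamini-Hochberg, with a threshold of 0.05. Every adjusted p and interval comes from such a fit. Arm ratios were fitted likewise over 74 pairs. In 13 of them an arm undetected on a stem cell array was left missing there. A miRNA undetected on an EB array sits at the floor, so its p depends on the floor. Named were the 10 largest rises and falls with arrays not overlapping, the 5 brightest detected in a single group, extremes and brightest of each family, the largest arm changes and list members. miR-370-3p and the cluster groups were chosen after their values were seen. Members and lists were chosen with earlier results of these data known. Seed families needed 3 members detected on all 4 EB arrays, and clusters are RefSeq neighbours within 10 kb. Alternatives were other scalings, floors and filters, the EB arrays alone, leaving out an array, a replicate block and, added after the data were seen, a GC correction.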

Additional observations from a re-analysis of the deposited data

How the results depend on the processing

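Counts of miRNAs called higher or lower depended most on the scaling and the filter. Against 159 higher, quantile normalization gave 105, no scaling 24, the authors' deposited ratio 16, no filter on detection 12 (over 1247 miRNAs, most of them undetected), and removal of the GC trend, added after seeing the data, 74. Leaving out 1 EB array gave 87 to 150. Against 122 lower, scaling to the hur features gave 15, the authors' ratio 30, no filter 8 and a fit of the 4 EB arrays alone 78, and leaving out 1 EB array gave 64 to 124. With a floor 4 times as high 29 arm ratios passed against 10, and leaving out 1 EB array gave 1 to 16. The number of seed families with a median below 0 stayed between 8 and 10 of 10. Over the 60 named miRNAs and 8 arm ratios followed through all alternatives, 260 comparisons lost a call, 20 gained one and 0 changed direction while called. Over all 484 miRNAs, 7 were called in opposite directions under different scalings. The share of rises under each scaling stands with the main counts. Array numbers share only a number: deviations of same-numbered arrays correlated at 0.0805 between the EB groups, 0.121 between hypoxic EBs and stem cells and 0.0503 between normoxic EBs and stem cells, and with the replicate block 152 miRNAs were higher, 111 lower and 10 arm ratios past the threshold. The block ended 5 of the named calls: miR-6415, miR-199a-3p, miR-5110, miR-125b-5p and the arm ratio of miR-32 (limma adjusted p = 0.0595). Signals below the floor of 2.91 units have no measured order. Among the named miRNAs detected in a single group, all 8 past the threshold lost it with a floor 4 times as high.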
